A study of Homo sapiens with 4 samples.

Results

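The 10 genes described here encode subunits of Polycomb repressive complex 2 (PRC2) and Polycomb repressive complex 1 (PRC1), and their transcripts were compared between SK-N-BE(2) cells carrying scramble shRNA (sh-Scb) and SK-N-BE(2) cells carrying sh-SAPCD2. The PRC2 members were EZH1, EZH2, SUZ12 and EED, and the PRC1 members were RING1, RNF2, PCGF2, BMI1, CBX2 and CBX8. They were chosen by GENCODE symbol and matched to Ensembl identifiers, and 10 of 10 were found among the 64252 genes of the count table. SK-N-BE(2) is an established human neuroblastoma (NB) cell line with MYCN amplification, and both groups were made in it with lentiviral shRNA and puromycin selection. RNA-seq was performed on 2 libraries per group. The labels do not say whether the 2 libraries of a group came from separate cultures, so p-values measure only the spread between these libraries, which may be technical. The labels also do not say which of the study's 2 SAPCD2 hairpins each sh-SAPCD2 library carries. The study asked which genes depend on SAPCD2, a protein it linked to the cellular location of E2F7, a repressor of E2F target genes.

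Polycomb complexes keep developmental genes silent. In PRC2, EZH2 or its paralog EZH1 methylates lysine 27 of histone H3, and SUZ12 and EED are needed for that activity. In PRC1, RNF2 or RING1 ubiquitinates histone H2A together with a PCGF protein such as PCGF2 or BMI1, and a CBX protein such as CBX2 or CBX8 reads the methyl mark and brings canonical PRC1 to it. EZH2 is a known E2F target that dividing cells express highly, and in NB it is known for silencing differentiation genes.

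The promoter letters are shown for the 3 members in which an E2F-type motif was found, because E2F activity is what the study examined. The windows come from RefSeq on GRCh38 and run from 250 bases before to 50 bases after an annotated gene start. The letters searched, on both strands, were TTTCCCGC, TTTGGCGC, TTTCGCGC and TTTGCCGC. Of the 10 members, 8 had a window, and CBX2 and CBX8 had no entry. EZH2 and BMI1 had 2 windows each, and the second window of EZH2 (chr7:148883436-148883735) held no E2F-type motif. EZH2 holds the motif at its start site itself (window chr7:148884242-148884541, minus strand), EZH1 holds it 115 bases before the start (chr17:42744991-42745290, minus strand), and SUZ12 holds it 189 bases before the start (chr17:31936757-31937056, plus strand). Capitals mark the motif, and each line reads 5′ to 3′ along the gene's strand.
EZH2: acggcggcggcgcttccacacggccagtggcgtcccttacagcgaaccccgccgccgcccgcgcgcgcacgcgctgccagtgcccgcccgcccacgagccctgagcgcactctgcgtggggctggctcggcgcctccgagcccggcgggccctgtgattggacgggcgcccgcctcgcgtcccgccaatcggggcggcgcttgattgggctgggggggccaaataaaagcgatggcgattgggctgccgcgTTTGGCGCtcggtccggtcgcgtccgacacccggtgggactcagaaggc
EZH1: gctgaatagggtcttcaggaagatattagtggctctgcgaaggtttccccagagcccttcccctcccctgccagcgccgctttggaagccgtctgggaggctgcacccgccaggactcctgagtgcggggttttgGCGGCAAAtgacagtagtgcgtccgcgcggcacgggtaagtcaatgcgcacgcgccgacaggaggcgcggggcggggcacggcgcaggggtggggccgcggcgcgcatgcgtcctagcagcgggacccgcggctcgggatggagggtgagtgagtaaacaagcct
SUZ12: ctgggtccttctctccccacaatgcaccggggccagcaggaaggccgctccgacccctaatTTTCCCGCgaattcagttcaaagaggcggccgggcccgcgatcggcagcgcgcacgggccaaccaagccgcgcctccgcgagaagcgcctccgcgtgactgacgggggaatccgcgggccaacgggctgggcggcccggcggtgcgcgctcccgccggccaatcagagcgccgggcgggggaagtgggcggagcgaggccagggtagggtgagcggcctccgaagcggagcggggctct
All 3 genes with these letters encode PRC2 subunits, 2 of them the methyltransferases. The same letters occur in 3.31% of all 35116 windows and in 4.64% of the 17300 windows of tested genes. Without the first T of each motif (18.4% of the windows of tested genes) RNF2 joins them, with TTCCCGC 111 bases before its start. In the windows of EED, RING1, PCGF2 and BMI1 neither form was found. The windows of EED (chr11:86244503-86244802, plus strand) and PCGF2 (chr17:38746579-38746878, minus strand) lie inside the gene positions given below. The letters at the outermost starts of EED and PCGF2 were therefore not read. An E-box, CACGTG, the letters bound by MYC-family factors such as MYCN, was found in 1 member, BMI1, 70 bases before its start, and in 9.24% of the windows of tested genes. The CHR letters TTTGAA or TTCGAA, which overlap no E2F motif and are known from genes of the cell division phase, were found in SUZ12 alone among the members, 173 bases before its start on the opposite strand, and in 12% of the windows of tested genes.

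The libraries held from 25347900 to 31850997 counts, and levels are given as CPM, a gene's counts relative to its library's total after TMM scaling. The floor of 3 counts came to 0.0954 to 0.118 CPM and covers counting error only. SAPCD2 itself stood at 83.4 and 82.1 CPM in the sh-Scb libraries and at 35.3 and 52.4 CPM in the sh-SAPCD2 libraries, so the knockdown was present in both but differed between them (log2 fold change −0.91 ± 0.19 SE, n = 2 per group, adjusted p = 0.0206 by edgeR's quasi-likelihood test). All 9 neuroblastoma markers read, HAND2 and GATA3 among them, had counts in each library (3 were called lower and 1 higher), while SOX10 of Schwann cells and PRRX1 of mesenchymal cells had 0 counts. Of the 6 fibroblast and mesenchymal markers, LUM, PDGFRB and DCN had over 20 CPM in each library, the summed level was 345 and 363 CPM in the sh-Scb libraries against 423 and 392 CPM in the sh-SAPCD2 libraries, and none passed the test. The 4 Schwann cell markers read summed to 2.89 and 1.89 CPM against 2.49 and 4.01 CPM, and none passed the test. The part of these markers in the results was not tested.

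All 4 PRC2 members were lower in both sh-SAPCD2 libraries than in both sh-Scb libraries, and of these EZH2 passed the test. Among the 6 PRC1 members CBX2 fell, PCGF2 was at lower values and RNF2 at higher values in both sh-SAPCD2 libraries without passing the test, and the libraries of BMI1, RING1 and CBX8 overlapped. At an adjusted p under 0.05 (edgeR's quasi-likelihood F test, Benjamini-Hochberg, 18779 genes tested, the 10 members among them), 2 of 10 members were lower and 0 were higher, where 12.5% of all tested genes were lower and 12.4% were higher. With DESeq2, 3 members were lower and 0 were higher, where 13.5% and 14.9% of the 17322 genes to which it gave an adjusted p were lower and higher. At an unadjusted p under 0.05 in edgeR, 4 members (CBX2, EZH2, PCGF2 and RNF2) passed, as did 39.4% of all tested genes. At an adjusted p under 0.05 in edgeR no member also passed an absolute log2 fold change over 1, which 9.85% of the tested genes did. With DESeq2, PCGF2 passed both thresholds (log2 fold change −1.05, adjusted p = 0.00296). Both sh-SAPCD2 libraries lay below both sh-Scb libraries for 6 members and above them for 1, against 33.4% and 33.5% of the tested genes. The median log2 fold change of the members was −0.25, that of the PRC2 members −0.29 and that of the PRC1 members 0.19, beside 0.02 over all tested genes.

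**Figure D1:**
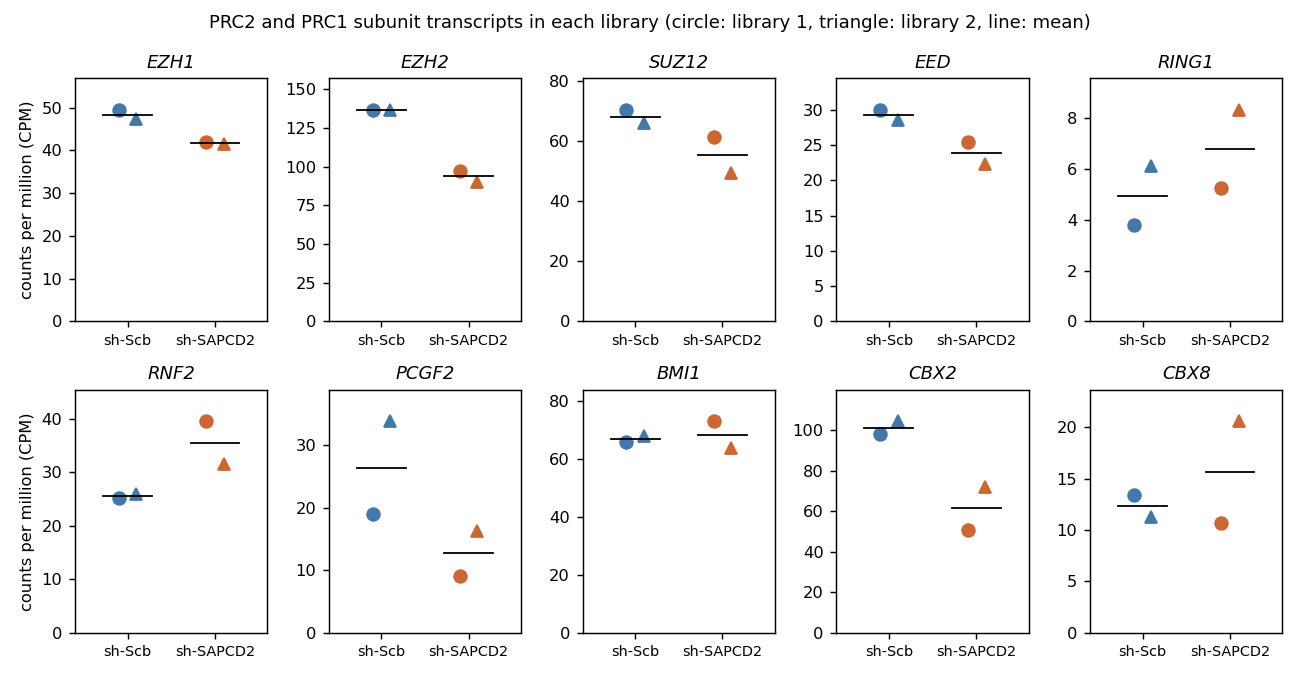
Level of each PRC2 and PRC1 member in CPM (vertical axes, each from 0) in the sh-Scb and sh-SAPCD2 libraries (circle, library 1, triangle, library 2, line, mean of the 2). EZH2 and CBX2 lie apart between groups and passed the test, PCGF2 and RNF2 lie apart with a wide spread within a group, and RING1, BMI1 and CBX8 overlap.

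EZH2 (ENSG00000106462), the main H3K27 methyltransferase of dividing cells, lies on the minus strand of chr7:148807257-148884321 and has 20 exons. It had 136.6 CPM in each of the 2 sh-Scb libraries and 97.4 and 90.2 CPM in the sh-SAPCD2 libraries, 71.3% and 66.0% of the control mean. The groups were apart, and the 2 libraries of each group lay close to each other. The log2 fold change was −0.54 ± 0.10 (SE, n = 2 per group), with an adjusted p of 0.0143 by edgeR's quasi-likelihood test. With 1 sh-Scb library left out the log2 fold change stayed at −0.54, and the adjusted p was 0.196 or 0.197, so the call rests on having both control libraries. A fit with 1 library left out takes its spread from the complete group alone and assumes that the lone library varies like it, here and for each such value below.

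EZH1 (ENSG00000108799, chr17:42700275-42745049, minus strand), the paralog that also acts in cells that no longer divide, had 49.4 and 47.4 CPM in the sh-Scb libraries and 41.9 and 41.5 CPM in the sh-SAPCD2 libraries. Its libraries did not overlap, but the log2 fold change of −0.21 ± 0.11 (SE, n = 2 per group) had an adjusted p of 0.215. SUZ12 (ENSG00000178691, chr17:31937007-32001038, plus strand), the scaffold of PRC2, had 70.4 and 66.0 CPM against 61.5 and 49.5 CPM. EED (ENSG00000074266, chr11:86201212-86278813, plus strand), which binds the methylated histone and stimulates the enzyme, had 29.9 and 28.5 CPM against 25.5 and 22.4 CPM. Both were lowest in the second sh-SAPCD2 library, with log2 fold changes of −0.30 ± 0.14 and −0.29 ± 0.14 (SE, n = 2 per group) and adjusted p-values of 0.172 and 0.173. Without the first sh-SAPCD2 library SUZ12 and EED were at −0.48 and −0.40 and were called, without the second they were at −0.15 and −0.20 and were not called, and with a per-library correction for GC content and transcript length they were at −0.18 and −0.17 and were not called. SUZ12 shares 3.64% of its stretches of 100 bases with the pseudogene SUZ12P1, to which 318 and 324 counts were given in the sh-Scb libraries and 278 and 300 in the sh-SAPCD2 libraries, so its level is uncertain by the way such reads were assigned.

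RNF2 (ENSG00000121481, chr1:185045526-185102603, plus strand), the ubiquitin ligase also called RING1B, was the member with the highest log2 fold change. It had 25.2 and 25.9 CPM in the sh-Scb libraries and 39.5 and 31.5 CPM in the sh-SAPCD2 libraries, 154% and 123% of the control mean. Both knockdown libraries were above both controls but were apart from each other, and the log2 fold change of 0.47 ± 0.15 (SE, n = 2 per group) had an adjusted p of 0.0719. With the GC and length correction RNF2 was called at a log2 fold change of 0.61. Without the first sh-SAPCD2 library it was at 0.28 (adjusted p = 0.0579), and without the second at 0.63 (adjusted p = 0.00534).

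RING1 (ENSG00000204227, chr6:33208500-33212722, plus strand), the other ubiquitin ligase, was the member with the lowest level. It had 3.80 and 6.10 CPM in the sh-Scb libraries and 5.25 and 8.30 CPM in the sh-SAPCD2 libraries, and the groups overlapped (log2 fold change 0.46 ± 0.33 SE, n = 2 per group, adjusted p = 0.344). With 1 library left out RING1 was called in no fit, and its log2 fold change was 0.15 without the first and 0.84 without the second sh-Scb library, and 0.73 without the first and 0.085 without the second sh-SAPCD2 library. RING1 lies in the major histocompatibility region, of which the genome build also holds other copies, and how reads matching several copies were counted is not given in the sources used here.

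CBX2 (ENSG00000173894, chr17:79778148-79787983, plus strand), a chromodomain subunit of canonical PRC1 that compacts chromatin, fell. It had 98.0 and 104 CPM in the sh-Scb libraries and 50.6 and 72.0 CPM in the sh-SAPCD2 libraries, 50.1% and 71.2% of the control mean. Every sh-SAPCD2 value lay below every sh-Scb value, with more spread in the knockdown group, and the log2 fold change was −0.72 ± 0.18 (SE, n = 2 per group, adjusted p = 0.0321). Without the filter on low counts the adjusted p of CBX2 was 0.103, and without the second sh-Scb library it was 0.0900 at a log2 fold change of −0.68.

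CBX8 (ENSG00000141570, chr17:79792132-79801683, minus strand), another chromodomain subunit, is read on the opposite strand, and its 3′ end lies 4148 bp past the 3′ end of CBX2. It had 13.4 and 11.2 CPM in the sh-Scb libraries and 10.7 and 20.5 CPM in the sh-SAPCD2 libraries, so the knockdown libraries lay on both sides of the controls. The log2 fold change of CBX8 was 0.35 ± 0.31 (SE, n = 2 per group, adjusted p = 0.455). It was −0.21 without the second sh-SAPCD2 library and 0.72, with an adjusted p of 0.0147, without the first. The neighbors CBX2 and CBX8 thus had 1 call lower and 1 gene without a call, and the difference between them was read only as the ratio given below.

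PCGF2 (ENSG00000277258, chr17:38733898-38749817, minus strand), a RING-finger partner of the ligases also known as MEL18, had the lowest log2 fold change of the members. It had 19.0 and 33.8 CPM in the sh-Scb libraries and 9.11 and 16.3 CPM in the sh-SAPCD2 libraries, 34.5% and 61.9% of the control mean. The second library was 1.78 times the first among the controls and 1.79 times the first in the knockdown group, and the highest knockdown value was close to the lowest control value. The log2 fold change of −1.05 ± 0.36 (SE, n = 2 per group) had an adjusted p of 0.0830, while DESeq2 gave an adjusted p of 0.00296 and the correction for GC content and length gave 0.0177. With 1 library left out, PCGF2 was called without the first sh-Scb library (log2 fold change −1.41) and without the second sh-SAPCD2 library (−1.53), and was not called without the second sh-Scb library (−0.57, adjusted p = 0.252) or without the first sh-SAPCD2 library (−0.71, adjusted p = 0.163). Its exons share 1703 bp with exons of CISD3 on the opposite strand, and without strand, reads from the shared stretch cannot be told apart. CISD3 had 21.2 and 18.6 CPM against 13.8 and 23.8 CPM and an adjusted p of 0.856.

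BMI1 (ENSG00000168283, chr10:22321099-22331484, plus strand), the PCGF protein known for silencing the CDKN2A locus, showed no detectable difference. It had 65.9 and 67.8 CPM in the sh-Scb libraries and 73.0 and 63.8 CPM in the sh-SAPCD2 libraries, with a log2 fold change of 0.03 ± 0.12 (SE, n = 2 per group) and an adjusted p of 0.864. Its readthrough transcript COMMD3-BMI1, which shares 1000 bp of exons, had 8 and 0 counts against 0 and 13 counts.

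Levels between members can be set side by side only per length, here as CPM per kilobase of the canonical transcript. In the sh-Scb group EZH2 was first at 51.5 CPM per kilobase, followed by CBX2 at 21.8, BMI1 at 18.9, SUZ12 at 15.2 and EED at 13.99. EZH1 at 10.4 and PCGF2 at 10.02 came next, and RNF2 at 7.51, CBX8 at 3.28 and RING1 at 2.84 were last. Values of the neighbors EZH1 and PCGF2, PCGF2 and RNF2, and CBX8 and RING1 overlapped between libraries, and those of the other neighbors did not. In the sh-SAPCD2 group EZH2 was still first at 35.3 CPM per kilobase, BMI1 followed at 19.3 and CBX2 at 13.2, and RNF2 at 10.4 stood above EZH1 at 9.001 and PCGF2 at 4.83. The order depends on the length used. With the union of all annotated exons in place of the canonical transcript, a setting chosen after seeing the data, CBX2 was first at 17.8, followed by BMI1 at 15.2 and EZH2 at 12.7 CPM per kilobase in the sh-Scb group.

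The balance within 4 paralog pairs was compared as the log2 ratio of the 2 genes' CPM in the same library, which needs no scaling between libraries. EZH2 to EZH1 was 1.47 and 1.53 in the sh-Scb libraries and 1.22 and 1.12 in the sh-SAPCD2 libraries. CBX2 to CBX8 was 2.86 and 3.21 against 2.24 and 1.81. PCGF2 to BMI1 was −1.792 and −1.002 against −2.99 and −1.96. For these 3 pairs both knockdown libraries lay below both controls, with mean differences of −0.33 for EZH2 to EZH1, −1.01 for CBX2 to CBX8 and −1.08 for PCGF2 to BMI1 (pooled SD 0.057, 0.28 and 0.65, n = 2 per group). For PCGF2 to BMI1 the difference was −0.56 without the first sh-SAPCD2 library, −0.68 without the second sh-Scb library and −1.59 without the second sh-SAPCD2 library, and the gap between the nearest libraries of the 2 groups was smaller than that SD. RNF2 to RING1 was 2.71 and 2.07 against 2.89 and 1.91, a mean difference of 0.01 (pooled SD 0.58) with overlapping groups. With 2 libraries per group an exact two-sided permutation test cannot go below p = 0.333, which the first 3 pairs reached, and the p of RNF2 to RING1 was 1 by the same exact test.

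**Figure D2:**
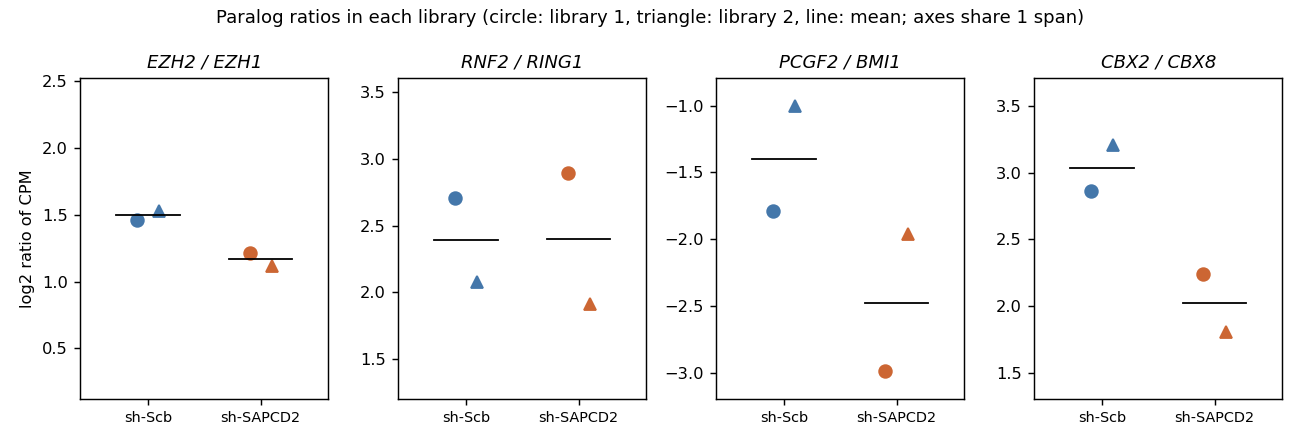
Log2 ratio of the CPM of paired paralogs (vertical axes, each spanning the same range of log2 units) in each sh-Scb and sh-SAPCD2 library (circle, library 1, triangle, library 2, line, mean of the 2). EZH2 to EZH1 and CBX2 to CBX8 were lower in both sh-SAPCD2 libraries by more than the pooled SD, PCGF2 to BMI1 spread widely within each group, and RNF2 to RING1 overlapped.

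The members differ in base composition, and this moved with the difference between the 2 sh-SAPCD2 libraries. The 4 members whose transcript has over 55% GC (RING1, CBX2, CBX8 and PCGF2, all of PRC1) were each higher in the second sh-SAPCD2 library than in the first, by 1.57, 1.42, 1.92 and 1.79 times. All 6 members under 55% GC were lower in it, with ratios from 0.80 for RNF2, at 36.0% GC, to 0.99 for EZH1, at 50.6% GC. Among the sh-Scb libraries the same ratio ranged from 0.84 for CBX8 to 1.78 for PCGF2, with RING1 at 1.595 and the other 7 members between 0.94 and 1.06. Across 17467 tested genes, which all share these libraries, GC content and the log2 ratio of the sh-SAPCD2 libraries had a Spearman rho of 0.56, against −0.06 for the sh-Scb libraries. The part of this difference in the results was not tested beyond the GC correction. Under it EZH2 (log2 fold change −0.43), CBX2 (−0.90) and PCGF2 (−1.15) were called lower and RNF2 (0.61) higher. That correction called 3508 of 17467 tested genes lower and 3951 higher, where the main test called 2341 of 18779 lower and 2327 higher.

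**Figure D3:**
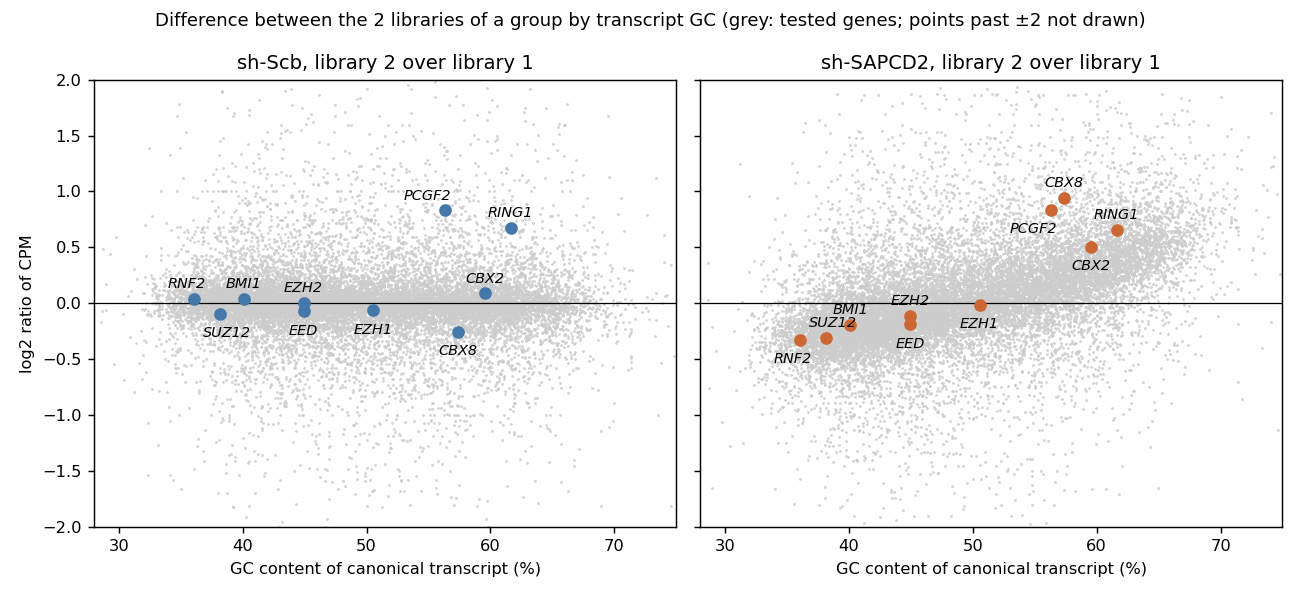
Log2 ratio of the second to the first library of a group (vertical axis) by GC content of the canonical transcript in percent (horizontal axis), for sh-Scb at left and sh-SAPCD2 at right, with tested genes in grey and the members as large points. In the sh-SAPCD2 panel the 4 GC-rich members lie above 0 and the other 6 below it, and in the sh-Scb panel PCGF2 and RING1 stand above the rest.

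Dividing cells hold more EZH2, so markers of proliferation are given beside it. All 9 of 9 proliferation markers fell, MKI67, TOP2A and PCNA among them, with log2 fold changes from −1.40 to −0.69 (adjusted p from 0.00243 to 0.0120 by edgeR's test). Their summed level was 2937 and 2971 CPM in the sh-Scb libraries and 1434 and 1243 CPM in the sh-SAPCD2 libraries. The log2 fold change of EZH2, −0.54, was smaller in size than that of any of the 9, and the part of this shift in the results for the members was not tested. In bulk RNA, fewer cells of a kind and less RNA per cell cannot be told apart.

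Accessory proteins help decide where the complexes act, and 50 other Polycomb genes, not all of them accessory, were read in 5 groups. Of the 48 tested, 12 were lower and 7 were higher, where 12.5% and 12.4% of all tested genes were lower and higher. Their median log2 fold change was −0.05 beside 0.02 over all tested genes. The list thus held calls in both directions, as did the tested genes as a whole. Of these 19 calls, 6 (PHF19, LCOR, PHC1, SCMH1, FOXK2 and KDM6B) held under every alternative run, and the other 13 were each lost without at least 1 of the sh-Scb libraries.

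The 10 PRC2 genes read outside the members (9 tested), a group labeled accessory in the figure, had 2 calls lower and 3 higher. PHF19, a Polycomb-like protein that brings PRC2 to CpG islands, fell from 58.3 and 58.7 CPM to 25.2 and 28.4 CPM (log2 fold change −1.13 ± 0.13 SE, n = 2 per group, adjusted p = 0.00399). Its paralog PHF1 rose, from 10.9 and 12.7 CPM to 16.7 and 19.0 CPM (log2 fold change 0.59, adjusted p = 0.0449), a call that was lost without the filter on low counts, without either sh-Scb library and without the second sh-SAPCD2 library. RBBP4, a histone-binding subunit shared with other complexes, fell by 0.44 on the log2 scale. LCOR, whose locus encodes the PRC2 partner PALI1, rose from 47.8 and 48.7 CPM to 113 and 85.1 CPM (log2 fold change 1.04), and EPOP, an elongin-binding partner of PRC2, rose by 0.67 on the log2 scale.

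Among the 8 tested canonical PRC1 genes read outside the members, 2 were lower and 6 were not called. PHC1, a polyhomeotic protein that links PRC1 complexes into clusters, had the lowest log2 fold change of all 48, from 64.5 and 56.2 CPM to 15.8 and 17.5 CPM (log2 fold change −1.85 ± 0.14 SE, n = 2 per group, adjusted p = 0.00207). SCMH1, a further Polycomb protein that binds PHC proteins, fell by 0.82 on the log2 scale.

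The 19 variant PRC1 genes had 4 calls lower (PCGF6, L3MBTL2, DCAF7 and CSNK2A1, with log2 fold changes from −0.79 to −0.43) and 2 higher (PCGF3 at 0.61 and E2F6 at 0.59). PCGF6, L3MBTL2 and E2F6 are known partners in one variant PRC1 complex, in which they thus had calls in different directions. Of the 10 tested genes of the deubiquitinase that removes the PRC1 mark from histone H2A, the partners FOXK2 (log2 fold change −0.93), MBD5 (−0.81), MBD6 (−0.78) and ASXL1 (−0.44) fell, and the enzyme BAP1 rose from 72.2 and 70.2 CPM to 98.6 and 122 CPM (log2 fold change 0.63, adjusted p = 0.0203). KDM6B, an H3K27 demethylase that opposes PRC2, rose from 53.5 and 56.3 CPM to 99.5 and 121 CPM (log2 fold change 1.00 ± 0.13 SE, n = 2 per group, adjusted p = 0.0057), and its paralog KDM6A had 28.5 and 29.0 CPM against 25.5 and 19.4 CPM with an adjusted p of 0.167.

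**Figure D4:**
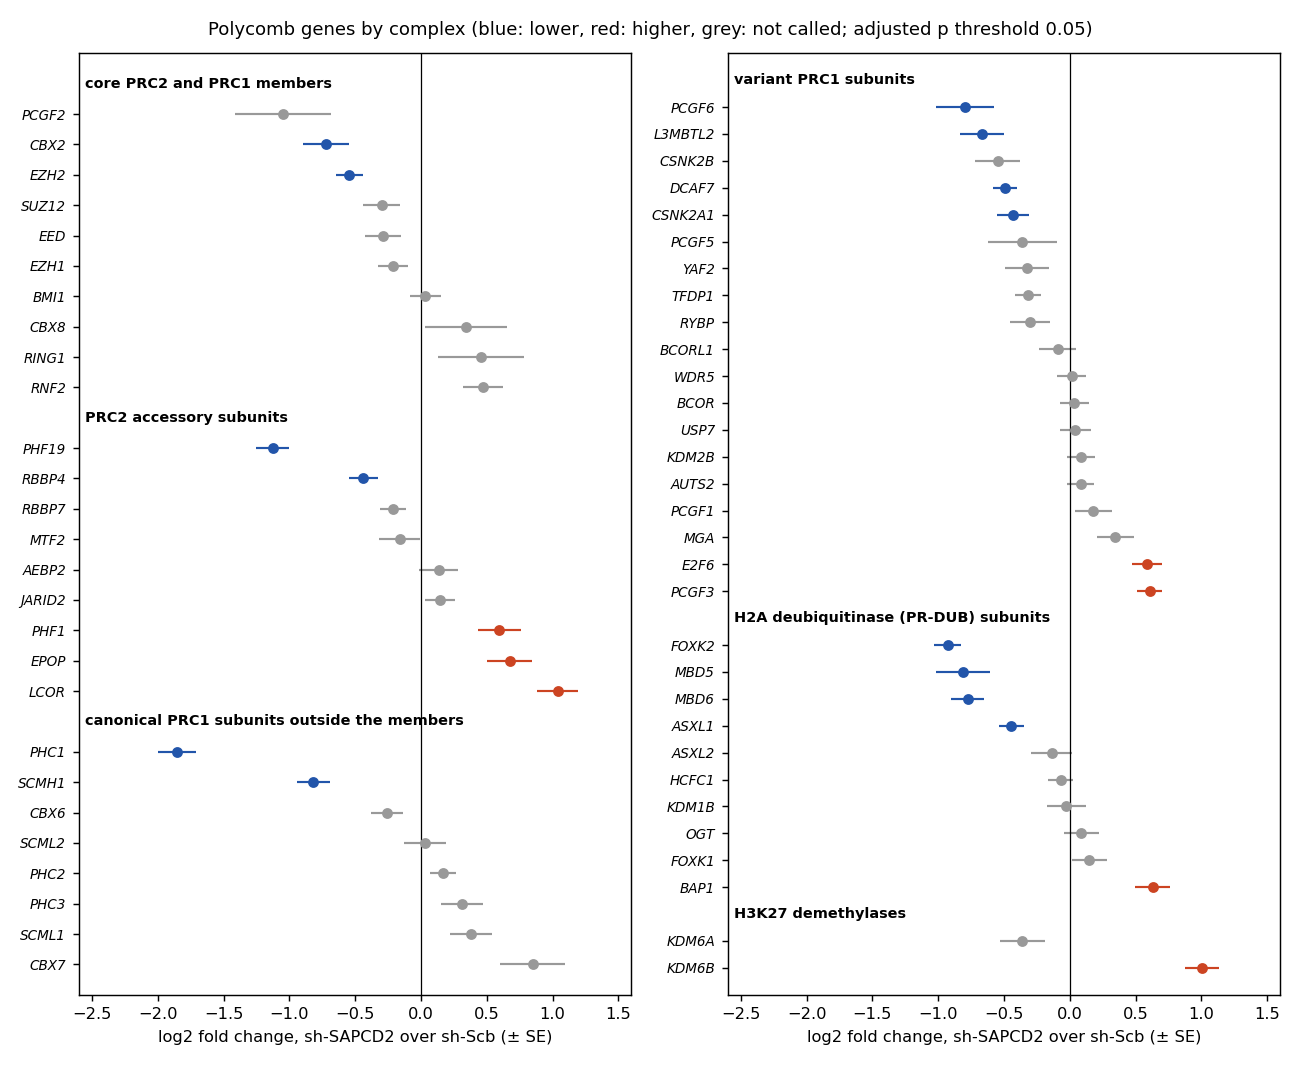
Log2 fold change of sh-SAPCD2 over sh-Scb with its SE (horizontal axes) for the 10 members and the 48 other tested Polycomb genes, grouped by complex (blue, lower, red, higher, grey, not past an adjusted p of 0.05). EZH2 and CBX2 are the 2 members in blue, PHC1 at −1.85 lies lowest, and the PRC2 accessory, variant PRC1 and deubiquitinase groups hold both blue and red points.

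Genes that Polycomb is known to silence were read last, from a list of 34. Most were silent or nearly so in these cells, and 15 were tested. Of these, 1 was lower and 4 were higher, where 12.5% and 12.4% of all tested genes were lower and higher. The median log2 fold change was 0.44, which does not change with EN2, given below, at its bound. EN2, with 0 counts in both sh-Scb libraries, could enter the test only through the sh-SAPCD2 libraries. With a mean of at least 1 CPM required, EN2 was left out and 3 target genes were higher. CLU, one of 4 genes known as EZH2-repressed in NB, rose from 22.6 and 20.4 CPM to 38.5 and 50.4 CPM (log2 fold change 1.05 ± 0.17 SE, n = 2 per group, adjusted p = 0.0100). Of the rest of those genes, CASZ1 had 10.9 and 10.7 CPM against 8.76 and 10.4 CPM, NGFR had 30.3 and 26.9 CPM against 23.1 and 29.2 CPM, and RUNX3 had 0 counts in all 4 libraries. CASZ1 and NGFR were not called in the main comparison, but both were called lower with the GC and length correction. Among the 30 textbook targets TBX3, a limb and neural crest transcription factor, rose by 0.85 on the log2 scale. CDKN1C, which encodes the CDK inhibitor p57, rose from 5.46 and 5.08 CPM to 7.89 and 14.7 CPM. Its log2 fold change was 1.10 (adjusted p = 0.0475 by edgeR's test) and ranged from 0.58 to 1.46 over the alternatives. The CDKN1C call was lost without the filter on low counts and without the second sh-SAPCD2 library. EN2, a homeobox gene, had 0 counts in both sh-Scb libraries and 24 and 49 counts in the sh-SAPCD2 libraries, at least 11.5-fold higher against a floor of 3 counts per library. DLX5, another homeobox gene, fell from 2.24 and 1.81 CPM to 0.907 and 0.954 CPM (log2 fold change −1.12, adjusted p = 0.0466), a call that was lost with DESeq2, without the filter on low counts and with any 1 library left out. CDKN2A, the locus that BMI1 is known to silence, had 8.28 and 8.60 CPM against 8.09 and 15.9 CPM and was not called.

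The 3′ untranslated regions of the members were also read, for the 7-base word TCCACCT, the word AGAGGTC, the word CCACCTA and the word GAGGTCA, which an earlier look at these libraries had singled out after values were seen. At least 1 of the 4 words was found in CBX2 and PCGF2 and none in the other 8 members, and since the words were chosen on values of these libraries this is no sign of a link. The lines below show 3 PCGF2 stretches and 1 CBX2 stretch, so that the letters can be read in place. The word TCCACCT and the word AGAGGTC are each the reverse complement of a stretch of 1 of the 2 SAPCD2 hairpins that the study lists, and the labels do not say which hairpin these libraries carry. Not every CBX2 stretch is shown. Capitals mark the words, and each line reads 5′ to 3′ on the transcript. AGAGGTC and GAGGTCA overlap in the last PCGF2 stretch, and no stretch shown holds CCACCTA.
PCGF2, chr17:38735138-38735164: ggccctttttTCCACCTcttctacttt
PCGF2, chr17:38734455-38734481: tcaggccctgAGAGGTCtcagctcttg
PCGF2, chr17:38734143-38734168: caccccttgAGAGGTCAgcggaccac
CBX2, chr17:79785244-79785270: cttgttggtcTCCACCTtgttcctacc
Of 13581 tested protein-coding genes, 34% held at least 1 of the 4 words, and EZH2, whose 3′ untranslated region is 266 bp long, held none. The part of these words in the values of CBX2 and PCGF2 was not tested.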

How the data were processed

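Total RNA of SK-N-BE(2) cells with sh-Scb or sh-SAPCD2 was sequenced by the study in 2 libraries for each condition given in the labels. The authors mapped paired reads of 150 bp with HISAT2 2.2.0, which the submitters' processing notes name with hg38, ran StringTie, and deposited whole-number counts per Ensembl gene. How reads were counted, with or without strand and at several matches, is not given in the sources used here. The 4 libraries held from 25347900 to 31850997 counts.

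TMM scaling and the quasi-likelihood test came from edgeR 4.0.16 (R 4.3.3), run on the 18779 genes that passed filterByExpr (minimum count 10, minimum total 15), with Benjamini-Hochberg adjustment over all of them and a threshold of 0.05. The biological coefficient of variation was 15.4%. Log2 CPM used a prior count of 2. Positions, lengths and GC content came from GENCODE 44 on hg38, which matched 17467 tested genes. Promoter windows came from RefSeq. Sites in 3′ untranslated regions were read back from the hg38 genome.

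As alternatives, counts were tested with DESeq2 1.42.0, or edgeR was given DESeq2 size factors or library totals, no filter or a mean of 1 CPM or more, a replicate block, loess offsets for GC content and length (span 0.3), the block plus these offsets, or 3 of the 4 libraries. Ratios were also taken with a prior count of 0.5. The members and lists were chosen with earlier results of these data known. All members are named, with at most the 6 called genes of smallest p in each other list, and genes overlapping a member. Some further items of these lists are not reported here, and counts are without them. SUZ12P1, CDKN2A, CASZ1, NGFR, RUNX3, KDM6A and the markers named singly were named after their values were seen. Python 3.11.15, pandas 2.3.3 and matplotlib 3.10.9 were used for tables and figures.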

Additional observations from a re-analysis of the deposited data

How the results depend on the processing

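For single genes (the 10 members, PHC1, PHF19, KDM6B, CLU and FOXK2, under 12 alternatives each), 162 refits kept their direction and side of the threshold, 12 passed it newly, 4 no longer passed and 2 turned direction. With each library left out, BMI1 ranged from −0.084 to 0.13 and CBX8 from −0.21 to 0.72, both below 0 without 1 sh-SAPCD2 library (the first for BMI1, the second for CBX8). PHC1, PHF19, KDM6B, CLU and FOXK2 were called under all 12, EZH2 and CBX2 under 10, PCGF2 under 6, RNF2 under 3, SUZ12, EED and CBX8 under 1, and EZH1, RING1 and BMI1 under none.

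With each library left out, members called lower ranged from 0 to 4, members called higher from 0 to 1, members past both thresholds from 0 to 1, other Polycomb genes lower from 4 to 22 and higher from 2 to 11, and Polycomb target genes lower from 0 to 1 and higher from 3 to 6. Calls over all genes ranged from 1174 lower and 1185 higher without the second sh-Scb library to 4239 lower and 4376 higher without the first sh-SAPCD2 library. The ratio of RNF2 to RING1 ranged from −0.48 to 0.50, turning to −0.31 without the second sh-Scb library and to −0.48 without the first sh-SAPCD2 library. The difference for EZH2 to EZH1 was −0.23 after the GC and length correction.

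Without the filter on low counts (34935 genes), 1 member was lower (EZH2), 6 other Polycomb genes were lower and 4 higher, and 0 target genes were lower. Over all genes of that run 1180 were lower and 1081 were higher. With DESeq2, 1 member (PCGF2) passed both thresholds and 0 target genes were lower. After the GC and length correction 1 member was higher (RNF2) and 1 passed both thresholds (PCGF2). Of the other Polycomb genes 17 were lower and 11 were higher, and 4 target genes were lower (CASZ1, DLX5, IRX3 and NGFR). Over all genes that correction called 3508 lower and 3951 higher. The causes were not tested.

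The libraries of the 2 groups share only a replicate number (the correlation of their deviations was −0.02 over 18779 genes). With the replicate block, 3 members were lower, 1 (PCGF2) passed both thresholds, and 2 target genes were lower. Over all 18779 genes the block called 2700 lower and 2858 higher. With the replicate block and the correction together, 1 member was higher and 1 passed both thresholds. In that fit 17 other Polycomb genes were lower and 11 were higher, and 3 target genes were lower (DLX5, IRX3 and NGFR). Over its 17467 genes, 3469 were lower and 3929 were higher. RING1 had 105 to 261 counts per library. Its 2 libraries differed in each group, at 3.80 and 6.10 CPM in sh-Scb and 5.25 and 8.30 CPM in sh-SAPCD2. The depth limits target genes near 0 counts, for which a change was not detectable.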
